A study of Mus musculus with 3 samples.

Results

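The genes described here encode the contractile and actin cytoskeleton of fibroblasts, measured on Affymetrix expression arrays in cultured mouse dermal fibroblasts of 3 genotypes. In FGFR3Act cells the receptor tyrosine kinase Fgfr3 has the G374R change, with the neo cassette removed (Fgfr3G374Rneo-), and is active without need of a ligand. The FGFR3KO allele holds G374R too but keeps the neo cassette (FGFR3G374Rneo+), so that no functional receptor is made, and the FGFR3WT cells are from Bl6 wild types. Both mutant alleles thus hold G374R, the strain background of the mutants is not given in the sources used here, and no cells were treated. The series states n = 3 per group, but the table holds 1 column per genotype. It is not stated if one column stands for 1 culture, for pooled RNA or for a mean, so no spread between replicates exists and every difference below is one between arrays, without a test. The members were 44 genes chosen by name. Of these, 38 had a probe set annotated to exactly 1 gene symbol, out of 7842 named genes in the table, and where a gene had several, the one brightest on average (mean of log2 signals) stood for it. The 6 others (Myl6, Cald1, Zyx, Flna, Pfn1 and Itga11) have no signal here and enter the promoter counts alone. Values are MAS5 signals, a linear brightness in arbitrary units that does not allow the levels of different genes to be compared.

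Fibroblasts carry stress fibres, bundles of cytoplasmic actin and non-muscle myosin that end in focal adhesions on the matrix. When they become myofibroblasts, as in wound repair and fibrosis, they add smooth muscle proteins such as alpha smooth muscle actin (Acta2) and calponin (Cnn1), which strengthen contraction. Transcription of many of these genes depends on the serum response factor SRF, which binds a DNA element called the CArG box and becomes more active when free actin monomers are scarce. The study asks how Fgfr3 signalling bears on the profibrotic state of fibroblasts.

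The promoters are shown first, because the genes of this set are often described together as SRF targets. RefSeq promoter windows of assembly GRCm38.p6, from 250 bases before to 50 bases after each annotated start, were in the table used here for 37 of the 44 members. A CArG box on either strand was found in 9 of the 37 members, which is 24.3%, against 1.81% of the 27025 genes of the table. With 1 base of the inner 6 allowed to differ from A or T, the shares were 29.7% of the members and 11.3% of all genes. The motif CATTCC, to which TEAD factors bind, was found on either strand in 14 of the 37 members, or 37.8%, and in 16.6% of all genes. No CArG box overlapped a CATTCC in the member promoters. The 5 windows printed here are those of a skeletal, a cardiac, a smooth muscle and a cytoplasmic actin and of the regulatory myosin light chain Myl9, from the striated, smooth and non-muscle members, and none from the adhesion and LIM members. Capitals mark CArG boxes, with those that differ by 1 inner base included. The window of Acta1 lies at chr8:123894726-123895025 on the minus strand, that of Actc1 at chr2:114052826-114053125 on the minus strand, that of Acta2 at chr19:34255324-34255623 on the minus strand, that of Actg1 at chr11:120348446-120348745 on the minus strand and that of Myl9 at chr2:156775214-156775513 on the plus strand.
Acta1: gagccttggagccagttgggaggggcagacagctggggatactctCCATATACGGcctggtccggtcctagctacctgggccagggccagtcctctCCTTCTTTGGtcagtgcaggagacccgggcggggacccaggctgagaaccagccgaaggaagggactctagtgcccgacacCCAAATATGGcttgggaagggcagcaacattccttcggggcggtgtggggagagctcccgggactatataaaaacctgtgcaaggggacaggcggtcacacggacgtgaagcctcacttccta
Actc1: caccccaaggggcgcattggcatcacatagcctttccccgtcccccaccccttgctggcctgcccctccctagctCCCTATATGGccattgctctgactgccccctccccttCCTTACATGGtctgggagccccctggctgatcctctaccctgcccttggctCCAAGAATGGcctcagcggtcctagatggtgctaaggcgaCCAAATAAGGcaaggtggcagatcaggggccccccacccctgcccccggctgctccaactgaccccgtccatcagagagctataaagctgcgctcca
Acta2: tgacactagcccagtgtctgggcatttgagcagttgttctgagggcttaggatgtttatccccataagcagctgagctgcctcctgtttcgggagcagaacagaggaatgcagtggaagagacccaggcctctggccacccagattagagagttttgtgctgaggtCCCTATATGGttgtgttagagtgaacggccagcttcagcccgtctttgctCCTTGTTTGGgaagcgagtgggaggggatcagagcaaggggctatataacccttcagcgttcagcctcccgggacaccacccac
Actg1: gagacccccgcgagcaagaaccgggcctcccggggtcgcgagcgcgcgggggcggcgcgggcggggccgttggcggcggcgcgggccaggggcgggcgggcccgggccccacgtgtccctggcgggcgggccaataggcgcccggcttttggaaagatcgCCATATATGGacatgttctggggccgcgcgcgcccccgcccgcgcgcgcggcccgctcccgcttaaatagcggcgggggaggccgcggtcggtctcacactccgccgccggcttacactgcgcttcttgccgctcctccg
Myl9: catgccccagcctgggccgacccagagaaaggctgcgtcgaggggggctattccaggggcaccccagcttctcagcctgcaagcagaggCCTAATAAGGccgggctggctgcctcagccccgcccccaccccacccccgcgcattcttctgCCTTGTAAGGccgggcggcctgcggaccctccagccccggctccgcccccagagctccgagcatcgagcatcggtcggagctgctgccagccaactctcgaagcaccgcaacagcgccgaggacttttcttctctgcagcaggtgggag
An exact CArG box stood at position -73 from the start in Acta1 (CCAAATATGG), at -47 in Actc1 (CCAAATAAGG), at -90 in Actg1 (CCATATATGG) and at -161 in Myl9 (CCTAATAAGG). Acta2 had no exact box in this window and held 2 that differ by 1 inner base, CCCTATATGG at -84 and CCTTGTTTGG at -34. The other 5 members with an exact box were Cnn2, Fhl1, Fhl2, Vcl and Myl6. A match describes the letters of the window and says nothing of binding in these cells.

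A signal under the 40th percentile of an array's non-control probe sets was treated as being at the floor, which lay at 123 on FGFR3Act, 122 on FGFR3KO and 121 on FGFR3WT. Comparisons of a pair took in the genes that exceeded the floor on either array, and where the lower signal was at the floor the fold is given as "at least". Of the 38 members, 33 were above the floor on at least 1 array and 31 on all 3. Myh10, Des, Smtn, Myl1 and Pdlim3 were below it everywhere, with signals between 9.92 and 97.2, so desmin (Des) and smoothelin (Smtn), markers of differentiated muscle, were not measurable here. Skeletal muscle markers were also weak: of 18 measured, FGFR3Act had 3 above the floor, FGFR3KO 6 and FGFR3WT 2, and the highest were Myod1 at 241 (FGFR3Act), 324 (FGFR3KO) and 229 (FGFR3WT) and Tnni1 at 244 (FGFR3Act), 216 (FGFR3KO) and 95.9 (FGFR3WT). Of 7 pericyte and vascular smooth muscle markers, Rgs5 was below the floor on each array, and the summed signal was 648 (FGFR3Act), 1223 (FGFR3KO) and 1464 (FGFR3WT). The highest were Mcam at 373 (FGFR3Act), 609 (FGFR3KO) and 930.0 (FGFR3WT) and Notch3 at 144 (FGFR3Act), 296 (FGFR3KO) and 348 (FGFR3WT). Both were lower on FGFR3Act than on FGFR3WT, as were 5 of the 8 smooth muscle members compared (62.5%, beside 55.7% of all genes). Both were also lower on FGFR3KO than on FGFR3WT (log2 -0.61 for Mcam and -0.24 for Notch3). There 8 of 9 smooth muscle members were higher (88.9%, beside 48.5% of all genes). A further pericyte marker, Kcnj8, was above the floor on FGFR3KO alone, at 136. The part of such cells in the smooth muscle members' levels was not tested. Of 6 endothelial markers each array had 1 above the floor (summed signals of 468 to 686), and of 5 keratinocyte markers 1 was above it, on FGFR3KO. The label of dermal fibroblasts was borne out by 12 of 13 fibroblast markers above the floor on every array, whose signals summed to 58664 (FGFR3Act), 86273 (FGFR3KO) and 64964 (FGFR3WT).

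The FGFR3Act array also held macrophage transcripts. Of 16 macrophage markers measured, 14 exceeded the floor on FGFR3Act, while FGFR3KO and FGFR3WT each had 1 (Cd14). Their summed signal was 36454 on FGFR3Act, 1160 on FGFR3KO and 1059 on FGFR3WT, the highest being Ctss at 11427 (FGFR3Act), 25.7 (FGFR3KO) and 31.6 (FGFR3WT) and Lyz2 at 7037 (FGFR3Act), 48.2 (FGFR3KO) and 51.4 (FGFR3WT). Their part in the members' levels was not tested. In bulk RNA, fewer fibroblasts and less of a transcript per fibroblast cannot be told apart.

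**Figure D1:**
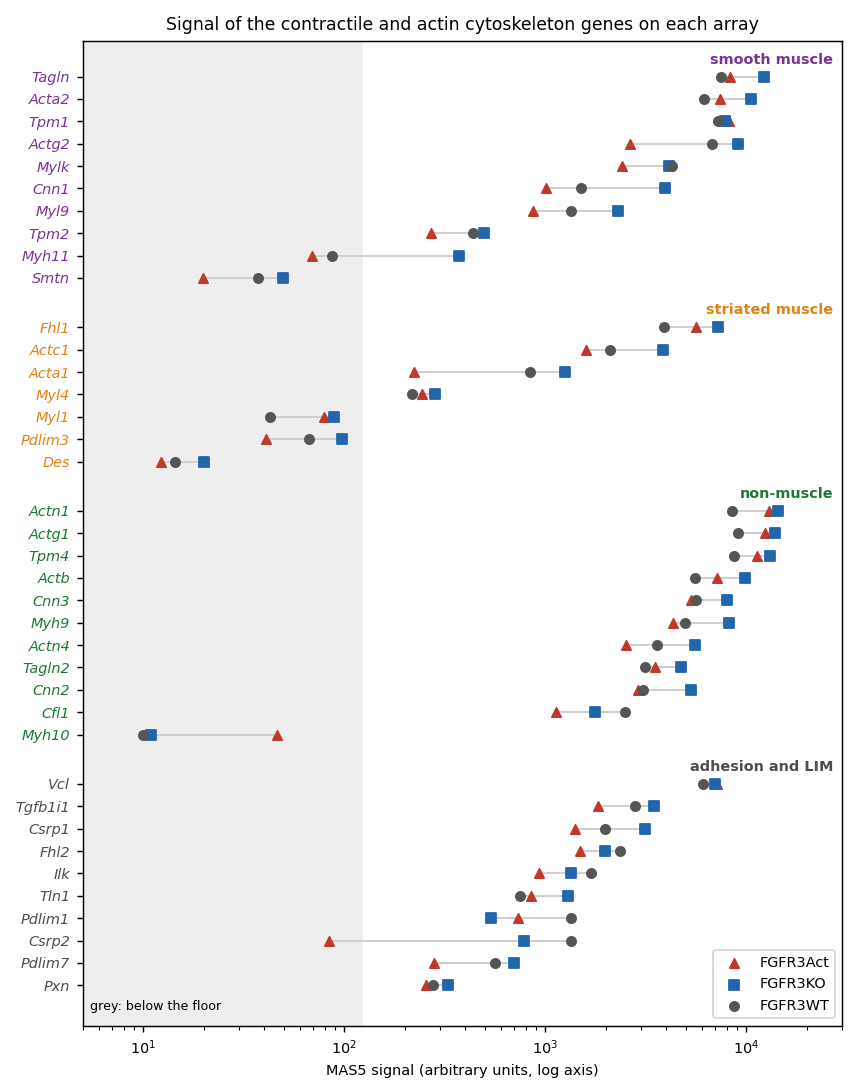
Deposited MAS5 signal (log axis, arbitrary units) of the 38 members on the FGFR3Act (triangle), FGFR3KO (square) and FGFR3WT (circle) arrays, grouped by role and ordered by mean signal, 1 array per genotype with no error bars. The grey area lies below the FGFR3Act floor of 123. The square is rightmost for 24 of the 31 genes above the floor on all arrays. That number is 12 with scaling to the beta-actin controls and 13 with the GAPDH control, which move every gene alike. The 5 genes wholly inside the grey area were not compared.

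Most members had their highest signal on FGFR3KO as deposited, though not after scaling to a single control gene. Of the 31 members above the floor on all arrays, 24 were highest on FGFR3KO (77.4%), 2 on FGFR3Act and 5 on FGFR3WT, while over the 4503 genes above the floor on all arrays 37.2% were highest on FGFR3KO. FGFR3Act was the lowest array for 18 of the 31, or 58.1%, against 42.3% of all genes. FGFR3WT was the lowest for 12, or 38.7%, against 21.3% of all genes. The 1 member lowest on FGFR3KO (3.2%, against 36.5% of all genes) was Pdlim1. After quantile normalisation, cyclic loess or median centring, 22 to 24 of the 31 were highest on FGFR3KO. Scaled to the beta-actin controls, 0 were highest on FGFR3Act, 12 on FGFR3KO and 19 on FGFR3WT. Scaled to the GAPDH control, 15 were highest on FGFR3Act, 13 on FGFR3KO and 3 on FGFR3WT. Scaling to a control moves every gene alike, and the order of all genes under these scalings was not computed. The all-gene median became 0.79 for FGFR3Act (GAPDH) and -0.68 for FGFR3KO (beta-actin), each against FGFR3WT. Under both scalings the members' median minus that of all genes therefore could not change, and was -0.23 for FGFR3Act and 0.61 for FGFR3KO against FGFR3WT.

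Among smooth muscle members, FGFR3Act lay below wild type in 5 of 8, or 62.5%, near the 55.7% of all genes. The median log2 difference was -0.61, but 0.25 scaled to the GAPDH control. FGFR3KO lay above wild type in 8 of 9, or 88.9%, beside 48.5% of all genes (median 0.72, or 0.06 scaled to the beta-actin controls). One of the 9, Myh11, entered only through its FGFR3KO signal, so it could only count as higher. Without it 7 of 8 were above wild type, or 87.5%, with a median of 0.57. The first of the smooth muscle actins, Acta2, which marks myofibroblasts, had signals of 7424 (FGFR3Act), 10494 (FGFR3KO) and 6145 (FGFR3WT). It was 1.21-fold higher on FGFR3Act and 1.71-fold higher on FGFR3KO than on FGFR3WT, though on FGFR3Act it was below (log2 -0.25) with scaling to the beta-actin controls. Enteric smooth muscle actin, Actg2, had 2619.7 (FGFR3Act), 9089 (FGFR3KO) and 6744 (FGFR3WT). Actg2 was therefore lowest on FGFR3Act, 2.57-fold lower than on FGFR3WT, while its FGFR3KO signal was 1.35-fold higher. The Actg2 probe set is of the _f_ kind, whose probes are shared within a gene family, so signal from other actins cannot be separated from it.

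Cnn1, calponin, which binds actin and slows the myosin ATPase, had the widest spread of the smooth muscle members measured on all arrays. Its signals were 1001 (FGFR3Act), 3936 (FGFR3KO) and 1507 (FGFR3WT). FGFR3Act was 1.51-fold lower and FGFR3KO 2.61-fold higher than FGFR3WT, and FGFR3Act was 3.93-fold lower than FGFR3KO. The single Cnn1 probe set is of the _s_ kind, shared by more than one transcript. Smooth muscle myosin heavy chain, Myh11, was above the floor on FGFR3KO alone, at 68.9 (FGFR3Act), 370.0 (FGFR3KO) and 86.8 (FGFR3WT). That put FGFR3KO at least 3.06-fold higher than FGFR3WT and FGFR3Act at least 3.02-fold lower than FGFR3KO.

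The actin-bundling gene Tagln (SM22), an early smooth muscle marker, had 8291 (FGFR3Act), 12228 (FGFR3KO) and 7436 (FGFR3WT). Against FGFR3WT its log2 difference was 0.16 on FGFR3Act and 0.72 on FGFR3KO, but on FGFR3Act it was -0.07 after quantile normalisation, -0.04 after cyclic loess and -0.37 scaled to the beta-actin controls. The myosin light chain gene Myl9 had 865 (FGFR3Act), 2294 (FGFR3KO) and 1335 (FGFR3WT), which is 1.54-fold lower on FGFR3Act and 1.72-fold higher on FGFR3KO than on FGFR3WT. Its kinase, Mylk, had 2400.2 (FGFR3Act), 4099 (FGFR3KO) and 4256 (FGFR3WT). Mylk was level between FGFR3KO and FGFR3WT and 1.77-fold lower on FGFR3Act than on FGFR3WT. Of the tropomyosins, which lie along the actin filament, Tpm2 had 269 (FGFR3Act), 497 (FGFR3KO) and 439 (FGFR3WT) and was 1.63-fold lower in FGFR3Act than in FGFR3WT cells. Tpm1, between 7196 and 8181 on all arrays, differed by at most 1.14-fold in any pair. As deposited, the substrate (Myl9) and the kinase (Mylk) were both lower on FGFR3Act than on FGFR3WT, and Myl9 alone of the 2 was higher on FGFR3KO, but scaled to the GAPDH control both were above FGFR3WT on FGFR3Act (log2 0.23 for Myl9 and 0.03 for Mylk) and Mylk was 0.08 above it on FGFR3KO.

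Of the striated muscle members, both sarcomeric actins had their lowest signal on FGFR3Act as deposited, while the other 2 had theirs on FGFR3WT (with scaling to the GAPDH control Actc1 was lowest on FGFR3WT too). Skeletal actin, Acta1, had 221 (FGFR3Act), 1256 (FGFR3KO) and 838 (FGFR3WT). It was 3.8-fold lower on FGFR3Act and 1.5-fold higher on FGFR3KO than on FGFR3WT, and 5.69-fold lower on FGFR3Act than on FGFR3KO. Cardiac actin, Actc1, had 1597 (FGFR3Act), 3862 (FGFR3KO) and 2090.3 (FGFR3WT) on its _f_ probe set, which is 1.31-fold lower on FGFR3Act and 1.85-fold higher on FGFR3KO than on FGFR3WT. A second Actc1 probe set was far below the floor, at 3.15 (FGFR3Act), 7.77 (FGFR3KO) and 1.78 (FGFR3WT), so the _f_ signal cannot be assigned to Actc1 with any certainty. The LIM-domain gene Fhl1, expressed in skeletal muscle, had 5636 (FGFR3Act), 7204 (FGFR3KO) and 3872 (FGFR3WT) and was above FGFR3WT on both mutant arrays, 1.46-fold higher on FGFR3Act and 1.86-fold higher on FGFR3KO. Its second probe set read 1012 (FGFR3Act), 626 (FGFR3KO) and 725 (FGFR3WT), which reverses the order of FGFR3KO and FGFR3WT. The atrial and embryonic light chain gene Myl4, between 217 and 281, stayed within 1.29-fold in every pair.

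Non-muscle members were evenly split on FGFR3Act, with 5 above and 5 below FGFR3WT (median 0.05, or 0.91 scaled to the GAPDH control), where 55.7% of all genes were below. On FGFR3KO 9 of 10 were above FGFR3WT, beside 48.5% of all genes (median 0.63, or -0.03 scaled to the beta-actin controls). The cytoplasmic actin Actg1 had 12389.5 (FGFR3Act), 13829.9 (FGFR3KO) and 9024 (FGFR3WT), 1.37-fold higher on FGFR3Act and 1.53-fold higher on FGFR3KO than on FGFR3WT. Actb, the other cytoplasmic actin, had 7098 (FGFR3Act), 9803 (FGFR3KO) and 5524 (FGFR3WT) on its _f_ probe set, 1.28-fold higher on FGFR3Act and 1.77-fold higher on FGFR3KO than on FGFR3WT. Both cytoplasmic actins were thus above wild type on both mutant arrays as deposited, with FGFR3KO the highest, but with scaling to the beta-actin controls Actg1 was below it on both (log2 -0.07 on FGFR3Act and -0.04 on FGFR3KO) and Actb on FGFR3Act (-0.17). Another Actb probe set read 363 (FGFR3Act), 259.7 (FGFR3KO) and 164 (FGFR3WT), with FGFR3Act the highest.

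The crosslinker alpha-actinin 1 (Actn1) had 12920.2 (FGFR3Act), 14322 (FGFR3KO) and 8457 (FGFR3WT), 1.53-fold higher on FGFR3Act and 1.69-fold higher on FGFR3KO than on FGFR3WT. One of its 2 other probe sets, at 84.6 (FGFR3Act), 208 (FGFR3KO) and 251 (FGFR3WT), was below FGFR3WT on both mutant arrays. Alpha-actinin 4 (Actn4) instead was 1.42-fold lower in FGFR3Act than in FGFR3WT cells, with 2522 (FGFR3Act), 5560.4 (FGFR3KO) and 3572 (FGFR3WT). With Actn1 read on its brightest set, of the _f_ kind, the 2 actinins stood on opposite sides of wild type on FGFR3Act. On FGFR3KO they stood on the same side (1.56-fold higher for Actn4). The dim Actn1 set reversed both relations (log2 -1.03 on FGFR3Act, a bound at the floor, and -0.27 on FGFR3KO). With scaling to the GAPDH control Actn4 was above wild type on FGFR3Act (log2 0.36). With scaling to the beta-actin controls it was marginally below wild type on FGFR3KO (-0.02). The tropomyosin gene Tpm4 had 11264 (FGFR3Act), 13048 (FGFR3KO) and 8657 (FGFR3WT), and the transgelin family gene Tagln2 had 3499.7 (FGFR3Act), 4749.9 (FGFR3KO) and 3109.9 (FGFR3WT). Both were at least 1.51-fold higher on FGFR3KO than on FGFR3WT and within 1.30-fold on FGFR3Act.

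Non-muscle myosin heavy chain Myh9, the motor of stress fibres, had 4320.1 (FGFR3Act), 8151 (FGFR3KO) and 4969.7 (FGFR3WT). It was 1.15-fold lower on FGFR3Act and 1.64-fold higher on FGFR3KO than on FGFR3WT, and its second probe set read 2101 (FGFR3Act), 4652 (FGFR3KO) and 1657 (FGFR3WT), higher on both mutant arrays. The calponin Cnn2 had 2890.0 (FGFR3Act), 5270.2 (FGFR3KO) and 3049 (FGFR3WT), and Cnn3 had 5320.1 (FGFR3Act), 8008 (FGFR3KO) and 5587 (FGFR3WT). Both were highest on FGFR3KO and differed by 1.05-fold between FGFR3Act and FGFR3WT as deposited. Cofilin, Cfl1, which severs actin filaments, was the exception in this group, at 1127 (FGFR3Act), 1764 (FGFR3KO) and 2475 (FGFR3WT). It was lower on both mutant arrays than on FGFR3WT, 2.2-fold lower on FGFR3Act and 1.4-fold lower on FGFR3KO.

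Adhesion and LIM-domain members were lower on FGFR3Act than on FGFR3WT in 8 of 10, beside 55.7% of all genes (median -0.65, but 0.21 scaled to the GAPDH control). They were split on FGFR3KO, with 6 above and 4 below FGFR3WT, where 48.5% of all genes were above (median 0.22, but -0.44 scaled to the beta-actin controls). Csrp2, a LIM protein of smooth muscle that binds actinin, had the widest difference of all members, at 83.9 (FGFR3Act), 780.5 (FGFR3KO) and 1334 (FGFR3WT). It was below the floor on FGFR3Act, at least 10.9-fold lower than on FGFR3WT and at least 6.36-fold lower than on FGFR3KO, and FGFR3KO was 1.71-fold lower than FGFR3WT. Its paralogue Csrp1 had 1406 (FGFR3Act), 3125 (FGFR3KO) and 1969.8 (FGFR3WT), 1.4-fold lower on FGFR3Act and 1.59-fold higher on FGFR3KO than on FGFR3WT. These paralogues thus differed in the position of FGFR3KO, above wild type for Csrp1 and below it for Csrp2 under each scaling tried, though Csrp1 by 0.0053 in log2 alone with scaling to the beta-actin controls.

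Pdlim1, which links actinin to kinases, had 728 (FGFR3Act), 535 (FGFR3KO) and 1345 (FGFR3WT) and was 1.85-fold lower on FGFR3Act and 2.51-fold lower on FGFR3KO than on FGFR3WT. Pdlim7 had 278 (FGFR3Act), 695 (FGFR3KO) and 563 (FGFR3WT), 2.02-fold lower on FGFR3Act and 1.24-fold higher on FGFR3KO than on FGFR3WT. Pdlim1 was the lone member at least 2-fold lower on FGFR3KO. Another Pdlim7 probe set read 319 (FGFR3Act), 402 (FGFR3KO) and 296 (FGFR3WT), with little difference between FGFR3Act and FGFR3WT. Talin 1 (Tln1), which joins integrins to actin, had 844 (FGFR3Act), 1299 (FGFR3KO) and 745 (FGFR3WT) and was 1.74-fold higher in FGFR3KO than in FGFR3WT cells. Its second probe set read 162 (FGFR3Act), 179.9 (FGFR3KO) and 190.5 (FGFR3WT) and did not show that difference.

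The integrin-linked kinase gene Ilk, a scaffold of focal adhesions, had 934 (FGFR3Act), 1333 (FGFR3KO) and 1692 (FGFR3WT), and the LIM gene Fhl2 had 1479 (FGFR3Act), 1988 (FGFR3KO) and 2361 (FGFR3WT). As deposited both were highest on FGFR3WT and lowest on FGFR3Act, 1.81-fold lower there than on FGFR3WT for Ilk and 1.6-fold lower for Fhl2. With scaling to the GAPDH control FGFR3Act was above FGFR3KO for both (log2 0.21 for Ilk and 0.29 for Fhl2) and above FGFR3WT for Fhl2 (0.18). The paxillin relative Tgfb1i1 (Hic-5), induced by TGF-beta, had 1826 (FGFR3Act), 3475 (FGFR3KO) and 2798 (FGFR3WT). It was 1.53-fold lower on FGFR3Act and 1.24-fold higher on FGFR3KO than on FGFR3WT. Vinculin (Vcl) and paxillin (Pxn) differed by at most 1.30-fold in any pair, with 7133 (FGFR3Act), 6953 (FGFR3KO) and 6067 (FGFR3WT) for Vcl and 254 (FGFR3Act), 329 (FGFR3KO) and 277 (FGFR3WT) for Pxn.

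**Figure D2:**
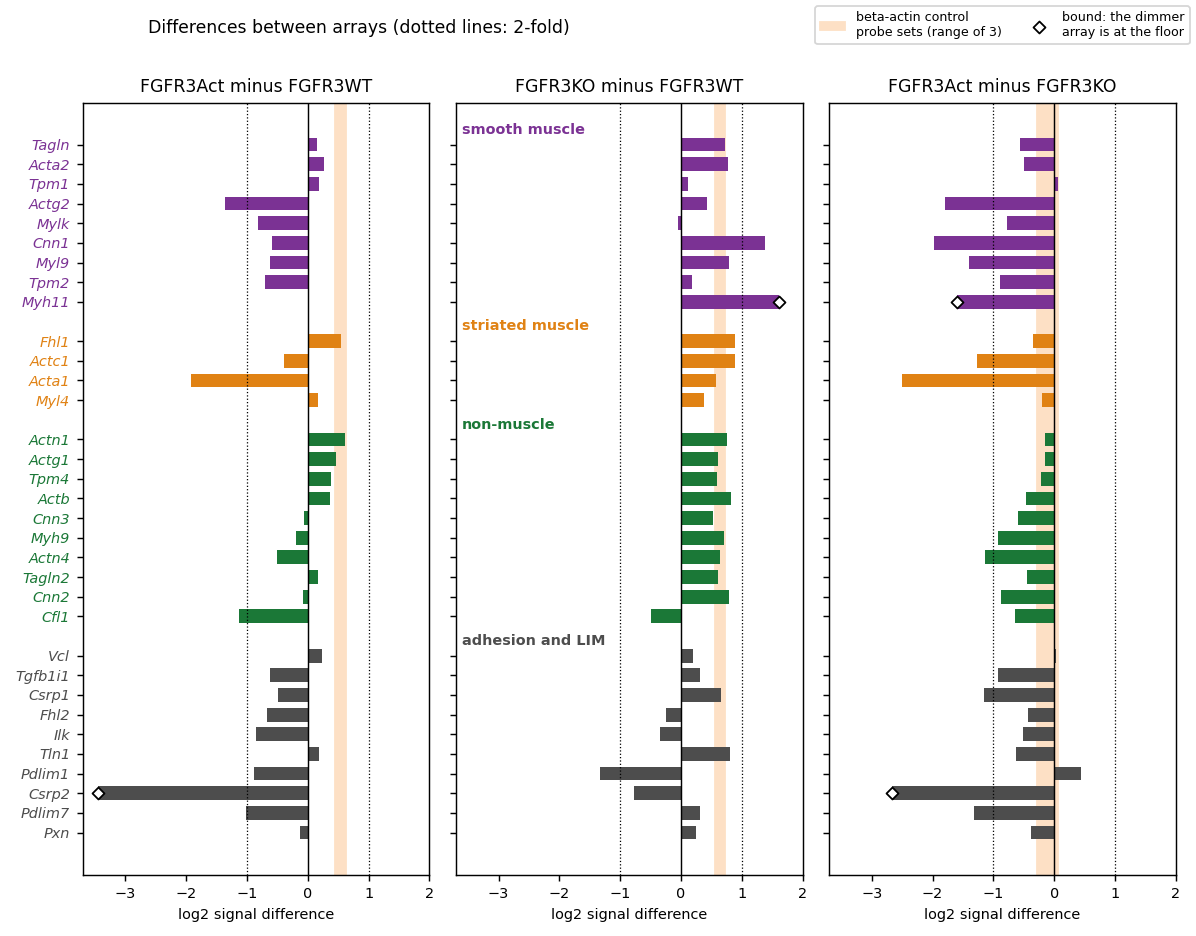
Log2 signal differences (x axis) of the 33 members above the floor on at least 1 array, for FGFR3Act minus FGFR3WT, FGFR3KO minus FGFR3WT and FGFR3Act minus FGFR3KO, coloured by role. Dotted lines mark 2-fold, diamonds mark bounds, and the shaded band spans the 3 beta-actin control probe sets. FGFR3KO bars point mostly right, by 0.59 at the median, and FGFR3Act bars mostly left, by -0.30 against FGFR3WT, though with scaling to the beta-actin controls the FGFR3KO median was -0.07 and with scaling to the GAPDH control the FGFR3Act median was 0.56.

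As deposited, the members' median lay below that of all genes on FGFR3Act and above it on FGFR3KO, each against FGFR3WT. These gaps kept their sign under each setting that could change them. Median centring and scaling to the beta-actin or GAPDH controls could not, because they move every gene alike. On FGFR3Act 5 of 32 members (Csrp2, Acta1, Actg2, Cfl1 and Pdlim7) lay below FGFR3WT by 2-fold or more, beside 4.79% of the 5244 genes compared, and 0 were at least 2-fold higher, beside 4.14%. By any amount, 20 of the 32 were lower and 12 higher, where 55.7% of all genes were lower and 44.3% higher. The median log2 difference was -0.30 over the members and -0.07 over all genes. On FGFR3KO 2 of 33 members, Myh11 and Cnn1, were at least 2-fold higher than on FGFR3WT, beside 1.93% of 5184 genes. Myh11 entered this pair through FGFR3KO alone. In the other direction 1 member, Pdlim1, was at least 2-fold lower, beside 3.61%. By any amount 27 of the 33 were higher, where 48.5% of all genes were higher and 51.5% lower. The median was 0.59 over the members and -0.02 over all genes. Both comparisons share the FGFR3WT array.

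Between the mutants, 10 of 33 members lay 2-fold or more below FGFR3KO on FGFR3Act, beside 7.49% of 5297 genes, and 0 lay as far above it, beside 8.33%. The 10 were Acta1, Actc1, Actg2, Actn4, Cnn1, Csrp1, Csrp2, Myh11, Myl9 and Pdlim7. Of them, Csrp2 and Myh11 entered this pair through FGFR3KO alone. By any amount 30 of the 33 were lower, where 53.2% of all genes were lower and 46.8% higher. The exceptions were Pdlim1, Tpm1 and Vcl. The median was -0.62 over the members and -0.05 over all genes.

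By role, the medians for FGFR3Act against FGFR3WT were spread from -0.65 (adhesion and LIM) and -0.61 (smooth muscle) over -0.11 (striated muscle) to 0.05 (non-muscle). The last 2 changed sign under settings listed in the closing section, and all 4 were positive with scaling to the GAPDH control, striated muscle at 0.75. For FGFR3KO against FGFR3WT the striated muscle median was 0.73, close to smooth muscle and non-muscle members, and 0.07 scaled to the beta-actin controls. That closeness depended on the probe set used. The striated median was 0.43 with the mean over probe sets, 0.37 with no filter and 0.18 with the lowest probe set. With the lowest probe set smooth muscle members stood at 0.72 and non-muscle members at 0.61. Quantile normalisation left a smooth muscle median of 0.23 for FGFR3KO against FGFR3WT. For FGFR3Act against FGFR3KO the medians were -0.88 over smooth muscle, -0.81 over striated muscle, -0.53 over non-muscle and -0.57 over adhesion and LIM members. Of these, non-muscle (0.19) and adhesion and LIM (0.15) were positive with scaling to the GAPDH control. Without Myh11 the smooth muscle median of that pair was -0.83 as deposited. With 4 to 10 genes a role and no replicates, these differences between roles were not tested. Markers of fibroblasts shifted at the median in the same directions as the members, by -0.29 over 12 genes on FGFR3Act and 0.31 on FGFR3KO against FGFR3WT. The medians of all genes were -0.07 and -0.02. The list was split, as Dcn, Thy1, Fn1 and S100a4 were higher on FGFR3Act, and Lum, Pdgfra, Pdgfrb and S100a4 were lower on FGFR3KO. Marker medians were not computed under other scalings.

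The brightest genes of the arrays were also higher on FGFR3KO, and 9 members belong to them. Of 135 other genes with a mean signal of 6000 or more, 87.4% were higher on FGFR3KO than on FGFR3WT, with a median of 0.46, beside a median of 0.62 for the 9 members of that range. Between 2000 and 6000, the median was 0.65 for 10 members and -0.05 for 619 other genes. Between 500 and 2000 it was 0.17 for 8 members and -0.10 for 1942 other genes. Below 500 it was 0.28 for 6 members and 0.02 for 2455 other genes. For FGFR3Act against FGFR3WT the same ranges, in that order, gave 0.27, -0.44, -0.77 and -0.70 (5 members) for the members. The other genes gave 0.22, 0.05, -0.13 and -0.07. The 9 brightest members therefore sat close to other genes of their brightness on FGFR3Act. In each lower range the members' median lay below that of the other genes. These ranges of signal were chosen after the data were seen.

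The beta-actin control probe sets of the array gave a further yardstick, but not one apart from the members. They measure the transcript of Actb, itself a member, so the members are set here, and in the scaling to these controls, against 1 of their own. The 3' set read 17030.2 (FGFR3Act), 20631 (FGFR3KO) and 12512 (FGFR3WT). The middle set read 15347 (FGFR3Act), 17443 (FGFR3KO) and 10784 (FGFR3WT). The 5' set read 11806 (FGFR3Act), 11308 (FGFR3KO) and 7635 (FGFR3WT). Both mutant arrays were above FGFR3WT on all 3 sets, by 1.36 to 1.55 times on FGFR3Act and by 1.48 to 1.65 times on FGFR3KO, and the 3' to 5' ratio, a sign of RNA integrity, was 1.44 on FGFR3Act, 1.82 on FGFR3KO and 1.64 on FGFR3WT. On FGFR3Act 0 of 32 members exceeded the range of these controls against FGFR3WT, 3 lay within it (Actg1, Actn1 and Fhl1) and 29 below it. On FGFR3KO 10 of 33 members exceeded it (Acta2, Actb, Actc1, Actn1, Cnn1, Cnn2, Fhl1, Myh11, Myl9 and Tln1), 8 lay within it and 15 below it. For Actb, read on its _f_ probe set, that is a difference between probe sets of the same gene. The median of the members (0.59) was thus within the beta-actin control range on FGFR3KO and below it on FGFR3Act.

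The other controls did not follow beta-actin. The GAPDH 5' set read 3323 (FGFR3Act), 5478 (FGFR3KO) and 6019 (FGFR3WT), lower on both mutant arrays than on FGFR3WT. The 18S ribosomal RNA sets were above FGFR3WT on FGFR3KO at all 3 positions, by 1.65 to 2.44 times, and stood at 1.12, 0.67 and 0.50 times FGFR3WT on FGFR3Act for the 3', middle and 5' sets. The 18S 3' to 5' ratio was 4.78 on FGFR3Act and 2.13 on both other arrays. The part of RNA quality in the members' differences was not tested.

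**Figure D3:**
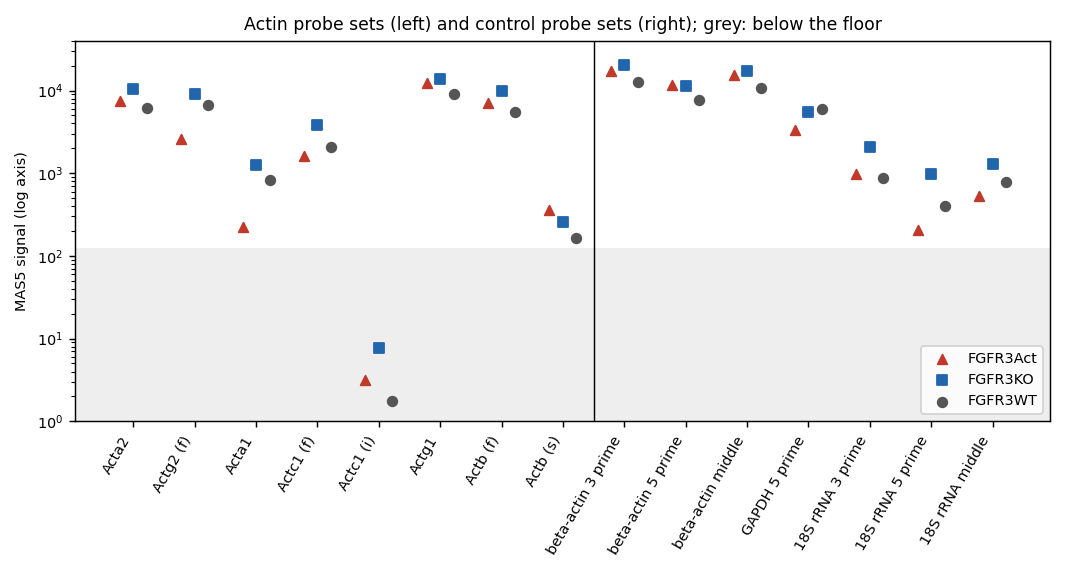
MAS5 signal (log axis) of every probe set of the 6 actin genes (left of the line; letters in brackets give the kind of probe set) and of the beta-actin, GAPDH and 18S control probe sets (right), on FGFR3Act (triangle), FGFR3KO (square) and FGFR3WT (circle), 1 array each. The grey area lies below the floor of 123. Acta1 and Actg2 have the triangle well below the circle, at 221 against 838 and 2619.7 against 6744, while Acta2, Actg1 and the beta-actin controls have it above (with scaling to those controls Acta2 and Actg1 are below).

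**Figure D4:**
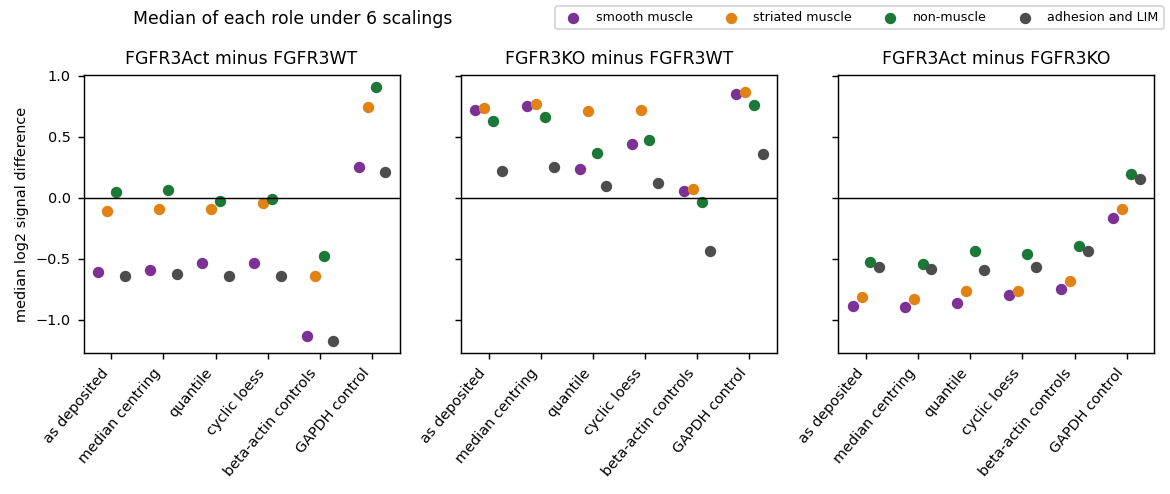
Median log2 signal difference (y axis) of the members of each role for the 3 pairs of arrays, as deposited and under 5 other scalings. On FGFR3KO against FGFR3WT the smooth muscle median runs from 0.06 with beta-actin controls to 0.85 with the GAPDH control; on FGFR3Act against FGFR3WT it runs from -1.14 to 0.25, being positive with the GAPDH control alone.

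Members with an exact CArG box in the printed kind of window were compared with those without. For FGFR3Act against FGFR3WT the median was -0.23 over 8 members with the box (5 lower) and -0.34 over 18 without (11 lower). For FGFR3KO against FGFR3WT it was 0.70 over the 8 (7 higher) and 0.56 over the 18 (14 higher). For FGFR3Act against FGFR3KO it was -0.65 and -0.61. The medians of members with and without the box were thus alike in each pair, and no test was made. Actb, Actg2, Tagln, Myh11, Csrp2, Tgfb1i1 and Pxn had no window and were left out, and these include some of the largest differences. Acta2, whose boxes differ by 1 inner base, was counted as without. The split therefore cannot show whether the box bears on the differences in the whole set.

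Regulators of the actin cytoskeleton outside the set had medians between -0.03 and 0.19. From a list of 85 other genes of actin regulation and adhesion, 58 were on the array. On FGFR3Act against FGFR3WT 32 of 53 were higher, or 60.4%, beside 44.3% of all genes, with a median of 0.19. Of the 53, 3 lay above FGFR3WT by 2-fold or more (5.66%, beside 4.14% of all genes) and 1 lay as far below it (1.89%, beside 4.79%). On FGFR3KO against FGFR3WT 26 of 53 were higher (49.1%, beside 48.5%), with a median of -0.03, and 1 lay above (1.89%, beside 1.93%) and 2 below (3.77%, beside 3.61%) by 2-fold or more. On FGFR3Act against FGFR3KO the median of 54 was 0.04, with 5 above (9.26%, beside 8.33%) and 2 below (3.70%, beside 7.49%) by that much. The regulators' 2-fold counts were thus near the shares of all genes.

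Of these regulators the actin monomer binder Tmsb10 had 414 (FGFR3Act), 1182 (FGFR3KO) and 511 (FGFR3WT), and was 2.31-fold higher in FGFR3KO than in FGFR3WT cells. Profilin 2, Pfn2, which feeds actin monomers to filament ends, had 2467 (FGFR3Act), 689 (FGFR3KO) and 1561 (FGFR3WT), and the muscle-type cofilin Cfl2 had 931 (FGFR3Act), 317 (FGFR3KO) and 723 (FGFR3WT). Both were lower on FGFR3KO than on FGFR3WT (2.27-fold lower for Pfn2 and 2.28-fold lower for Cfl2), opposite to most members. Ankrd1, a YAP and TAZ target that binds sarcomeric titin in muscle, had 744 (FGFR3Act), 165 (FGFR3KO) and 238 (FGFR3WT) and was 3.13-fold higher in FGFR3Act than in FGFR3WT cells. Cap1, which recycles actin monomers, had 282 (FGFR3Act), 117 (FGFR3KO) and 133 (FGFR3WT) and was 2.11-fold higher in FGFR3Act than in FGFR3WT cells. Its FGFR3WT signal was near the floor of 121, and its FGFR3KO signal was below the floor of 122. The small GTPase gene Rhob had 915 (FGFR3Act), 1776 (FGFR3KO) and 1829.6 (FGFR3WT), 2-fold lower on FGFR3Act than on FGFR3WT. Rhob and Ankrd1 thus lay on opposite sides of wild type there. Ppp1r14b, an inhibitor of protein phosphatase 1, had 1689 (FGFR3Act), 3791 (FGFR3KO) and 2260.1 (FGFR3WT) and was 2.24-fold lower on FGFR3Act than on FGFR3KO. The plastin of leukocytes, Lcp1, had 1576 (FGFR3Act), 20.3 (FGFR3KO) and 11.7 (FGFR3WT), above the floor on FGFR3Act alone, where the macrophage markers summed to 36454.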

How the data were processed

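RNA of 3 mouse dermal fibroblast samples, 1 per genotype, was hybridised as biotinylated cRNA, per the labels. The authors deposited 1 linear intensity per probe set and sample, made with MAS5 per the submitters' processing notes. MAS5 scales each array by 1 factor; no source used here gives its version, its target or its detection calls. With 2% cut off both tails, mean intensities came to 613 (FGFR3Act), 606 (FGFR3KO) and 614 (FGFR3WT).

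The deposited intensities were not rescaled. Probe sets with exactly 1 symbol in GEO's platform annotation were kept (9039), with symbols updated through gene identifiers from RefSeq (GRCm38.p6) for 9027 of them. The 18 control probe sets were kept out of the genes, and Actb was taken from the other probe sets. Signals below the 40th percentile of an array's other probe sets were raised to it and log2 was taken. Differences were computed in Python 3.11.15 with pandas 2.3.3, and the arithmetic was tested on simulated data. No test was possible with 1 array per genotype, and the number of arrays limits precision. Alternatives were 5 scalings, other floors (20th and 60th percentile, or an offset of 16), other filters and other probe sets per gene. Members, roles and lists were chosen with earlier results of these data known. Members at least 1.5-fold apart in a pair, and Acta2, Cnn1, Tagln, Actb and Actg1, are given in full, and regulators where they were at least 2-fold apart with both arrays above the floor; Lcp1 was added after its values were seen.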

Additional observations from a re-analysis of the deposited data

How the results depend on the processing

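There were no replicates, so whether any difference exceeds the spread between cultures is unknown, and no replicate could be left out. No paired analysis was possible because each genotype has 1 array and the labels give no replicate numbers. A median or gene counts as moved if it shifted by 1.5-fold or more, and a count if it changed by more than 1.5 times. Scaling by 1 control shifted every gene alike: with the beta-actin controls the median of all genes became -0.60 for FGFR3Act and -0.68 for FGFR3KO against FGFR3WT, and with the GAPDH control 0.79 and 0.12. Over all settings the members' median minus that of all genes stayed between -0.37 and -0.096 for FGFR3Act against FGFR3WT, between 0.32 and 0.63 for FGFR3KO against FGFR3WT and between -0.62 and -0.51 for FGFR3Act against FGFR3KO. Median centring and the scalings to the beta-actin or GAPDH controls could not change these gaps. Dim probe sets, and the _f_ sets of Actb, Actc1, Actg2, Actn1 and Cnn3, limit the single genes. Leaving out the _f_ sets, and leaving out the 6 actins, were chosen after seeing the data; without _s_ sets Cnn1 has no value.

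With scaling to the beta-actin controls, FGFR3KO against FGFR3WT gave medians of -0.069 over members, 0.057 smooth muscle, 0.074 striated, -0.033 non-muscle and -0.44 adhesion and LIM. In that pair 0 members were at least 2-fold higher and 4 lower, beside 9 and 1332 of 5184 genes. FGFR3Act against FGFR3WT gave 15 lower, beside 1173 of 5244 genes, and a non-muscle median of -0.48. With the GAPDH control, FGFR3Act against FGFR3WT gave medians of 0.56 over members, 0.25 smooth muscle, 0.75 striated, 0.91 non-muscle and 0.21 adhesion and LIM. In that pair 12 members were at least 2-fold higher and 2 lower, beside 1787 and 25 of 5244 genes. The same control gave, for FGFR3Act against FGFR3KO, 0.099, -0.16, -0.093, 0.19 and 0.15 in the order of the medians above. Of 33 members, 1 was at least 2-fold higher there and 4 lower, beside 1644 and 80 of 5297 genes. For FGFR3KO against FGFR3WT 4 members were at least 2-fold higher, beside 164 of 5184 genes. For FGFR3Act against FGFR3WT the non-muscle median was -0.026 with quantile normalisation, -0.0059 with cyclic loess, -0.00014 with the mean over probe sets and -0.074 without the actins. The striated median of that pair was 0.097 with the mean over probe sets, 0.026 with the lowest probe set, 0.022 with no filter, 0.17 without _f_ sets and 0.35 without the actins. That of FGFR3Act against FGFR3KO was -0.16 with the lowest probe set and -0.20 with no filter. The lowest probe set also gave -0.082 for adhesion and LIM members on FGFR3KO against FGFR3WT. Members at least 2-fold higher on FGFR3KO than on FGFR3WT numbered 1 with both arrays above the floor, with the floor at the 60th percentile and without _s_ and _x_ sets. Over all genes the same settings gave 83 of 4730, 50 of 3616 and 101 of 5094. On FGFR3Act against FGFR3WT 1 member was at least 2-fold higher with the lowest probe set and without _f_ sets, and 3 were lower without the actins. Over all genes 209 of 4906 and 210 of 5093 were higher under the first settings, and 251 of 5244 were lower. The causes were not tested.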
